A study of Homo sapiens with 6 samples.

Results

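The ATF and CREB genes outside the ATF1 subgroup were examined in the H3K27ac profile of SU-CCS-1. This is an established cell line from a human clear cell sarcoma (CCS), and its genotype is given as EWSR1::ATF1 (EA1), a fusion that carries the DNA-binding domain of ATF1. The 10 genes were ATF2, ATF3, ATF4, ATF5, ATF6, ATF7, CREB3, CREB5, CREB3L1 and CREB3L2, among 20007 protein-coding genes of GENCODE version 44. Each gene was followed over its annotated body and 50 kb on both sides, which gave 49 of the 30784 peaks of the list in windows that summed to 2191.4 kb. A promoter peak was one with any base within 3 kb of any annotated start site of the gene.

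Chromatin immunoprecipitation followed by sequencing (ChIP-seq) was done with an antibody against H3K27ac, an acetylated lysine of histone H3 found at active promoters and enhancers. There were 3 H3K27ac samples and 3 input samples, all of them untreated SU-CCS-1 as far as the labels say. The 1 peak list merges the H3K27ac data and holds positions with no signal, read count or value per sample, so depth is unknown, no spread between replicates can be given, and no locus was tested between conditions. Where no peak is listed, enrichment did not pass the caller's cutoff or the peak was filtered later, which is not the same as being free of acetylation.

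ATF and CREB proteins are basic leucine zipper (bZIP) factors that bind DNA as dimers, many of them at the palindrome TGACGTCA. ATF1, CREB1 and CREM form the subgroup best known for activation by cyclic AMP. The members described here respond to other inputs: ATF2, ATF7 and CREB5 are close relatives controlled by stress-activated kinases, ATF3 is an immediate early stress gene, ATF4 and ATF5 are made when the translation factor eIF2 is phosphorylated, and ATF6, CREB3, CREB3L1 and CREB3L2 are held in the membrane of the endoplasmic reticulum (ER) until proteases in the Golgi release their DNA-binding part.

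The cell type of the line was checked with 7 melanocytic markers, since clear cell sarcoma has melanocytic features. A promoter peak was found at 6 of them, against 63.4% of all protein-coding genes. The canonical start, defined in the next paragraph, lay inside a peak at SOX10, MITF and DCT, and at 53.5% of all protein-coding genes. The widest promoter peak was at SOX10, the neural crest and melanocyte factor, with 18040 bases. Of the 3 promoter peaks of SOX10, 1 was shared with another gene. PMEL, a melanosome protein, had one of 5530 bases that lay 2.109 kb from its canonical start, and 4 of its 6 promoter peaks were shared with other genes. DCT, a pigment enzyme, had one of 3890 bases. MITF had one of 3390 bases that lay 196.5 kb from its canonical start, where the peak measured 880 bases. The promoter peaks of MLANA and S100B, of 1640 and 1010 bases, lay 4.512 and 0.279 kb from their canonical starts. TYR, the tyrosinase gene, had no promoter peak, and the peak nearest to its start lay 839.6 kb away.

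A promoter peak was present at 8 of the 10 genes and absent at CREB5 and CREB3L1. Over all protein-coding genes the share with such a peak was 63.4%. The canonical start, which is the start of the transcript that Ensembl picks to represent a gene, lay inside a peak at the same 8 genes, against 53.5% of all protein-coding genes. Of the 80 annotated start sites of the 10 genes, 47 lay inside a peak and 48 within 3 kb of one. With so few genes these counts describe the family and were not tested.

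The 49 peaks were divided by position. There were 9 at a member's own start, 25 at the start of another gene, 8 distal peaks inside a member and 7 distal peaks outside it. The share at a member's own start was therefore 18.4%, with a 95% Wilson interval of 9.98 to 31.4% that covers counting error only. The balance depended on the flank: with 10 kb on both sides, 9 of 25 peaks were at a member's own start and 6 at another gene's, and in the gene bodies alone 9 and 2 of 19. A median of 5 peaks lay in a member's window, against 3 for all protein-coding genes, and the median density was 3.57 peaks per 100 kb against 1.77.

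**Figure D1:**
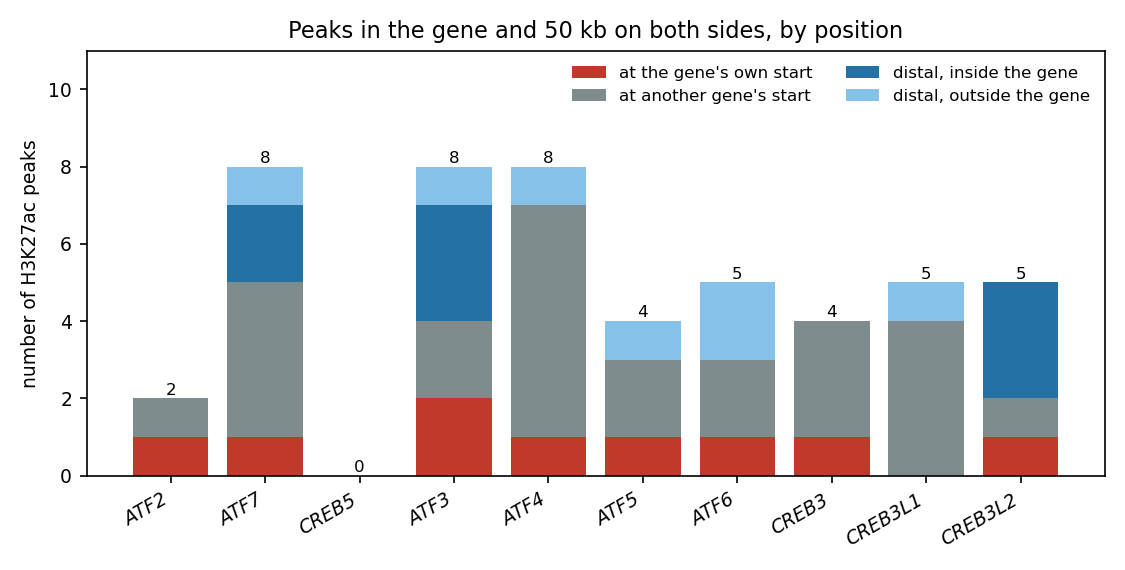
Number of H3K27ac peaks (vertical axis) in each gene and 50 kb on both sides of it, stacked by position: red at the gene's own start, grey at the start of another gene, dark blue distal inside the gene, light blue distal outside it. ATF3, ATF4 and ATF7 each had 8 peaks and CREB5 had 0, while dark blue appears in ATF3, ATF7 and CREB3L2.

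The members with a promoter peak differed in the width of the widest one. ATF4 had the widest, with 5220 bases, followed by ATF3 with 3080 and ATF5 with 3010. ATF6 with 1960 bases, ATF2 with 1830, CREB3L2 with 1630 and CREB3 with 1570 lay near the middle of the distribution over all genes. ATF7 had the narrowest, with 1020 bases. The median of the 8 was 1895 bases, beside 1600 bases over the 12684 protein-coding genes with a promoter peak, whose quartiles were 1110 and 2250 bases. The 3 widest thus lay above the upper quartile and ATF7 below the lower one. Width in a list of broad peaks also depends on signal height and on how neighbouring stretches were joined.

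**Figure D2:**
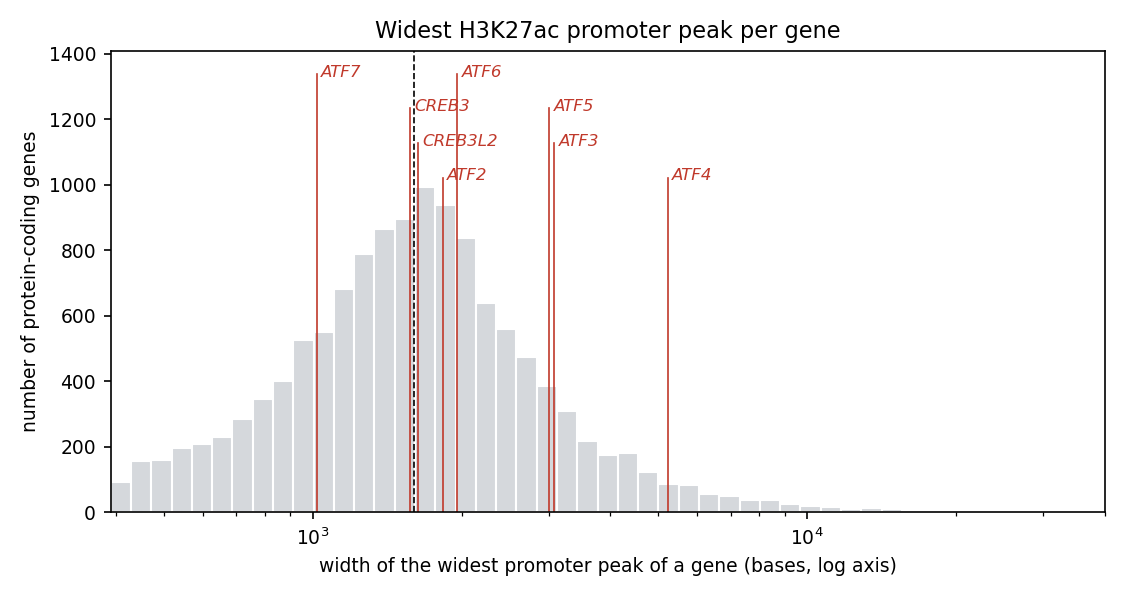
Distribution of the widest promoter peak per gene (horizontal axis in bases, log scale) over the 12684 protein-coding genes that have one (grey bars, number of genes), with the 8 members marked by red lines and the median of 1600 bases by the dashed line. ATF4, ATF5 and ATF3 stand in the right tail, ATF7 on the left, and the other 4 near the median.

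The promoter peaks also differed in how they lay about the canonical start. Their median reach was 1124.5 bases upstream and 1225.5 bases downstream, against 668 and 847 bases over all protein-coding genes whose canonical start lay in a peak. The peak reached further downstream than upstream at 5 of the 8 members, beside 65.3% of those genes. CREB3L2 and ATF7 had most of their peak inside the gene, with 144 and 218 bases upstream, whereas ATF6 and CREB3 had most of it outside, with 1389 and 1065 bases upstream.

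**Figure D3:**
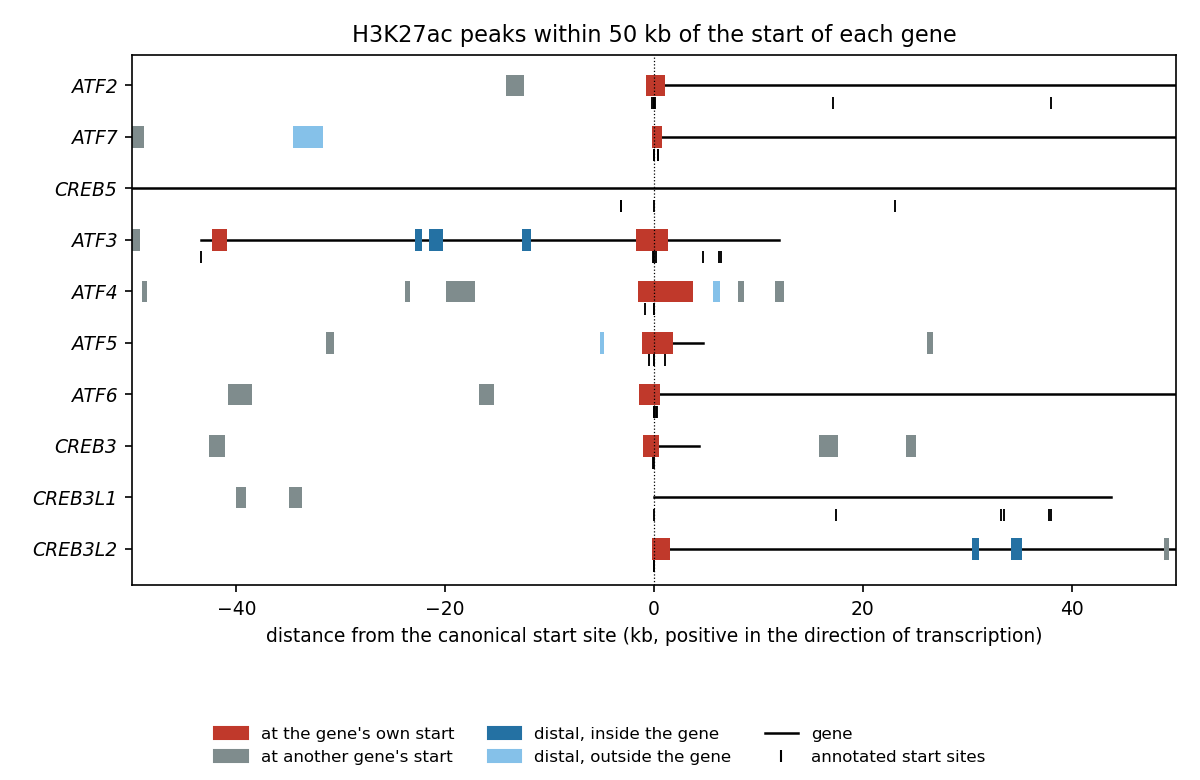
H3K27ac peaks from 50 kb before to 50 kb after the canonical start of each gene (horizontal axis in kb, positive in the direction of transcription), with black lines for genes and ticks for annotated start sites. Red peaks sit on the start of 8 genes, CREB5 shows none in the range, and the peaks on the left of CREB3L1 end 33.67 kb before its start.

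The ATF2 subgroup held a gene with 8 peaks and a gene with none. ATF2, a factor phosphorylated by the stress kinases JNK and p38, lies on the minus strand of chromosome 2 (hg38, chr2:175072250-175168382) and had 2 peaks in its window. Its promoter peak, chr2:175167121-175168950, covered 6 of its 9 start sites, and the 3 others are internal starts without a peak within 3 kb. The second peak, of 1730 bases, sat at the start of ATP5MC3, a gene for a subunit of the mitochondrial ATP synthase, 12.25 kb away. No distal peak was found in or around ATF2, and 1.31% of its 96.13 kb lay inside peaks.

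ATF7 is the closest relative of ATF2 in the list and lies on the minus strand of chromosome 12 (chr12:53507856-53626410). Its promoter peak, chr12:53625581-53626600, covered 9 of its 12 start sites and also holds the start of ATF7-NPFF, a readthrough transcript with the neighbouring gene NPFF, so the peak cannot be assigned to ATF7 alone. The width of 1020 bases exceeded that of 20.9% of genes with a promoter peak. Against this narrow promoter stood a pair of distal peaks in the fourth intron of its canonical transcript, of 1530 and 1290 bases, centred 86.73 and 88.5 kb downstream of the start. A further internal peak of 500 bases lay in the sixth intron, at the start of the lncRNA ENSG00000285692. A distal peak of 2860 bases stood upstream of the gene, 31.65 kb from its nearest start, wider than 93.6% of all distal peaks. The other peaks of the window belonged to MAP3K12, TARBP2 and ATP5MC2. ATF7 thus had 4 peaks in its body, more than 83.1% of the 1576 protein-coding genes within 25% of its length.

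CREB5, the third member of the ATF2 subgroup, had no peak at all. Its window of 626.6 kb (gene at chr7:28299321-28825894, plus strand) was empty, including all 14 of its start sites. The nearest peak lay 231.5 kb from the canonical start, and the gene sat whole inside a stretch without peaks of 1013.2 kb, chr7:28181061-29194230. Of the 30760 gaps between neighbouring peaks, 1.46% were longer. A window with no peak was found for 3376 protein-coding genes, or 16.9%, and for 60 of the 289 genes with a window at least as long, or 20.8%.

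Promoters rich in the dinucleotide CG carry H3K27ac more often than others in this list, so base composition is given beside presence. CpG observed over expected, the number of CG relative to that from the base content, was computed from 250 bases before to 50 bases after each canonical start. Of the 5661 genes below 0.5 on this measure 22.5% had a promoter peak, and of the 14346 others 79.5%. CREB5 had 0.385 and was the member below that value. The 250 bases before the starts of CREB5 and CREB3 are printed to show the contrast, on the strand of each gene, from hg38, with every CG in capitals. They lie at chr7:28412268-28412517 and chr9:35732416-35732665, both on the plus strand.
CREB5: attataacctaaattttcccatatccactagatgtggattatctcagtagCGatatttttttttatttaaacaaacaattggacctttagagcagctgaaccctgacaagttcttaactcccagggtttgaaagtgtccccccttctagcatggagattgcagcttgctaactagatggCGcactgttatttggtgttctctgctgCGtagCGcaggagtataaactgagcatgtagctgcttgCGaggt
CREB3: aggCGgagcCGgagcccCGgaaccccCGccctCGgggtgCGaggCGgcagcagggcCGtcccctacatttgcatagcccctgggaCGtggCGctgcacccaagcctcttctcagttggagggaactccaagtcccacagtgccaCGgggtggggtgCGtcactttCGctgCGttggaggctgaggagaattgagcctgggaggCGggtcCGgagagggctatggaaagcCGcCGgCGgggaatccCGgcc
The upstream sequence of CREB5 holds 5 CG, the fewest of the 10 genes. That of CREB3, which had a promoter peak, holds 20, the most together with ATF4. In CpG observed over expected, CREB3 exceeded 35.4% of protein-coding genes. CREB3L1 at 0.576 was close to CREB3L2 at 0.594 and CREB3 at 0.639 in CpG observed over expected. Its GC content of 48.7% was nearer to the 41.7% of CREB5 than to the 62.3% of CREB3L2 and 68.3% of CREB3. ATF6 combined a GC content of 47% with the highest CpG value of the 10, 1.03, and ATF4 had 0.99.

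ATF3 is a rapidly induced stress gene whose product can repress or activate with JUN partners. It lies on the plus strand of chromosome 1 (chr1:212565334-212620777) and had the most peaks inside the gene together with CREB3L2, 5 each. Among 2264 genes within 25% of its length, 93.6% had fewer than 5 and the median was 1. The main promoter peak, chr1:212607051-212610130, surrounded the canonical start with 1710 bases upstream and 1369 downstream. A second start far upstream, at base 212565334, gives rise to longer transcripts of the gene. That start was not inside a peak, but a peak of 1460 bases began 1077 bases downstream of it, at chr1:212566411-212567870, and is counted as a promoter peak by the 3 kb window.

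Between these starts lay 3 distal peaks of ATF3, of 710, 1360 and 820 bases, 20.54, 20.09 and 11.7 kb from the nearest start of the gene. Joined with the main promoter peak by the distance rule given further on, they formed the region chr1:212585871-212610130, with 5.97 kb of peak in 24.26 kb. In all, 13.4% of the gene lay inside peaks. A peak of 1510 bases at chr1:212558041-212559550 was at the starts of the lncRNAs ENSG00000260805 and ENSG00000288007, 5.784 kb from the outermost start of ATF3. Further out were a distal peak of 1020 bases and a peak of 460 bases at LINC02773.

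The 250 bases before the canonical start of ATF3 (chr1:212608511-212608760, plus strand) are shown because of the motifs that a search of both strands found in them. TGATGCAA, a composite site to which dimers of a C/EBP and an ATF protein such as ATF4 can bind, is in capitals, as is CGTCA, which is one arm of TGACGTCA.
ATF3 upstream: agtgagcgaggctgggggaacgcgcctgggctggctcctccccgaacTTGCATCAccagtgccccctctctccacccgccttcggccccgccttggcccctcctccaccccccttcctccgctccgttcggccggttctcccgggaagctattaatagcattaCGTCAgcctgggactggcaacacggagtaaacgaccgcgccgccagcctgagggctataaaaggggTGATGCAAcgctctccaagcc
TGATGCAA occurred at 2 places, at position -203 on the opposite strand and at position -21 on the gene's own strand, counted from the canonical start. It was found in 130 of all protein-coding promoter windows of 300 bases, or 0.65%, and 4 of these, or 0.02%, held it 2 or more times. CGTCA, which began at -87, stands in TTACGTCA, which has a different first arm from the full palindrome. This arm, on either strand, was also found in the 250 bases before the canonical starts of ATF2, ATF4, ATF6, CREB3 and CREB3L2. Both composite matches lie inside the promoter peak.

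The lncRNA peak upstream of ATF3 held the full palindrome and, a short way before it, TGAGTCA, the AP1 motif bound by JUN and FOS dimers. The 100 bases about it are printed for comparison with the intron site of CREB3L2 given further on, at chr1:212559018-212559117 on the plus strand, with both motifs in capitals.
ATF3 lncRNA peak: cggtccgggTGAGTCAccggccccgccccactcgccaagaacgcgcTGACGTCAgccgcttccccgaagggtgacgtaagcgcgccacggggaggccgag
TGACGTCA was found in 4.19% of promoter peaks within 25% of the width of this one, and TGAGTCA in 15.0%. Both motifs were in 143 of all promoter peaks, or 0.758%. Nothing in the list says which factor, if any, occupied these bases.

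ATF4 is the main factor of the integrated stress response and turns on genes of amino acid supply. It is a short gene of 2.989 kb on the plus strand of chromosome 22 (chr22:39519695-39522683), and its promoter peak, chr22:39519051-39524270, covered it from end to end, with all 9 start sites. The peak ran 1511 bases upstream and 3708 bases downstream of the canonical start, past the end of the gene. It was wider than the widest promoter peak of 96.6% of genes that have one. Being wholly inside peaks was seen for 147 protein-coding genes, 0.735% of all, and for 2.2% of the 773 genes within 25% of the length of ATF4.

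The window of ATF4 had 8 peaks and the highest density of the 10 genes, 7.77 per 100 kb. Of these, 6 were at starts of other genes, namely MGAT3, MIEF1 with MIURF, and RPS19BP1. Joined with the peaks that follow it, the ATF4 peak formed the highest ranked region of any member, chr22:39519051-39532990, with 7.35 kb of peak in 4 pieces. One of these pieces, of 690 bases, was distal, and those of 580 and 860 bases were at the start of RPS19BP1.

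ATF5, a relative of ATF4 linked to mitochondrial stress, lies on the plus strand of chromosome 19 (chr19:49928702-49933935). Its promoter peak, chr19:49928021-49931030, covered all 5 start sites and 44.5% of the gene. The canonical start of NUP62, a nuclear pore gene on the opposite strand, is 299 bases from that of ATF5 and inside the same peak, as is one start of IL4I1, an amino acid oxidase gene. The 3010 bases can therefore not be assigned to ATF5 alone. A peak of 400 bases, the narrowest width in the list, lay 4.242 kb before the nearest start of ATF5.

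ATF6 is the ER sensor that travels to the Golgi when proteins misfold and, once cleaved, activates chaperone genes. It lies on the plus strand of chromosome 1 (chr1:161766298-161977574) and is the second longest gene of the group at 211.3 kb. Its promoter peak, chr1:161764931-161766890, covered 10 of 11 starts and is shared with ATF6-DT, a divergent noncoding transcript. No other peak lay in the gene, so that 0.281% of its length was inside peaks. Of the 883 genes within 25% of its length, 21.6% had no peak in the body and the median was 1. The window also held peaks at FCRLB and at DUSP12, a phosphatase gene, and 2 distal peaks of 1550 and 660 bases beyond the end of ATF6. The larger of these held 1 match of TGACGTGG, a site for ATF6 and XBP1, at chr1:161994250-161994257, which 2.62% of distal peaks within 25% of its width also held.

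CREB3, a membrane-bound factor also called Luman, lies on the plus strand of chromosome 9 (chr9:35732598-35736999). Its promoter peak, chr9:35731601-35733170, covered both of its start sites. The start of TLN1, which encodes the adhesion protein talin, is 471 bases away on the opposite strand and inside the same peak. All the other peaks of the window were at starts of further genes, TPM2, GBA2 with RGP1, and MSMP. No distal peak was found in the window of CREB3.

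CREB3L1, known as OASIS and needed for collagen secretion in bone, was the second member without a promoter peak. It lies on the plus strand of chromosome 11 (chr11:46277662-46321409), and none of its 6 start sites had a peak within 3 kb. The 5 peaks of its window were all outside the gene, 4 of them at starts of ENSG00000254639, ENSG00000289990 and the lipid kinase gene DGKZ. The stretch without peaks about the gene measured 103.31 kb and 18.6% of gaps were longer. Of the 2420 genes within 25% of its length, 26.8% had no peak in the body. CREB3L1 thus lay in a peak-free stretch far shorter than that of CREB5, between neighbours with peaks.

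CREB3L2, a paralog of CREB3L1 that acts on secretory pathway genes, lies on the minus strand of chromosome 7 (chr7:137874979-138002086) and had 5 peaks, all of them inside the gene. Among 1551 genes within 25% of its length, 87.3% had fewer than 5 and the median was 1. The promoter peak, chr7:138000601-138002230, covered 3 of its 5 starts, and one start of AKR1D1, a steroid reductase gene on the opposite strand, is 94 bases from its edge. In the first intron, 2 distal peaks of 640 and 1050 bases were centred 30.81 and 34.73 kb downstream of the start. A peak of 460 bases at the start of the antisense transcript CREB3L2-AS1 followed at 49.09 kb, and one of 420 bases in the eighth intron at 111.8 kb.

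CREB3L2 was the member with TGACGTCA between 250 bases before and 50 bases after the canonical start. In all, 2.69% of protein-coding genes held it there, so 1 of 10 was not tested or read as an excess. The palindrome began at position -179 from the start (chr7:138002258-138002265) and lay 28 bases beyond the upstream end of the promoter peak, outside it. A second TGACGTCA was in the larger of the distal peaks in the first intron, at chr7:137966978-137966985, 35.1 kb downstream of the start. The 250 bases before the start (chr7:138002087-138002336) and 100 bases about the intron site (chr7:137966932-137967031) are printed on the minus strand of hg38, the strand of the gene, with the palindrome in capitals.
CREB3L2 upstream: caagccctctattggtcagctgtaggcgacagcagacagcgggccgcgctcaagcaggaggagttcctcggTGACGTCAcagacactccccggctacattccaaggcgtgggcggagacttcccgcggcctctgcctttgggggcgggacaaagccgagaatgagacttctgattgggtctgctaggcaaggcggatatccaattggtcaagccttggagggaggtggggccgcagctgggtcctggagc
CREB3L2 intron: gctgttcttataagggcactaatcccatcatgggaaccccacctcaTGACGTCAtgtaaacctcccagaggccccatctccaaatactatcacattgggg
The intron peak, chr7:137966831-137967880, also held TGAGTCA at 2 places and TGANNTCA, a looser form of the palindrome that includes TGACGTCA, at 3. TGACGTCA was in 0.679% of distal peaks within 25% of its width and in 117 of all 11928 distal peaks, or 0.981%. Both TGACGTCA and TGAGTCA were in 46 distal peaks, or 0.386%. A match of letters is a description of the sequence and does not show binding.

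**Figure D4:**
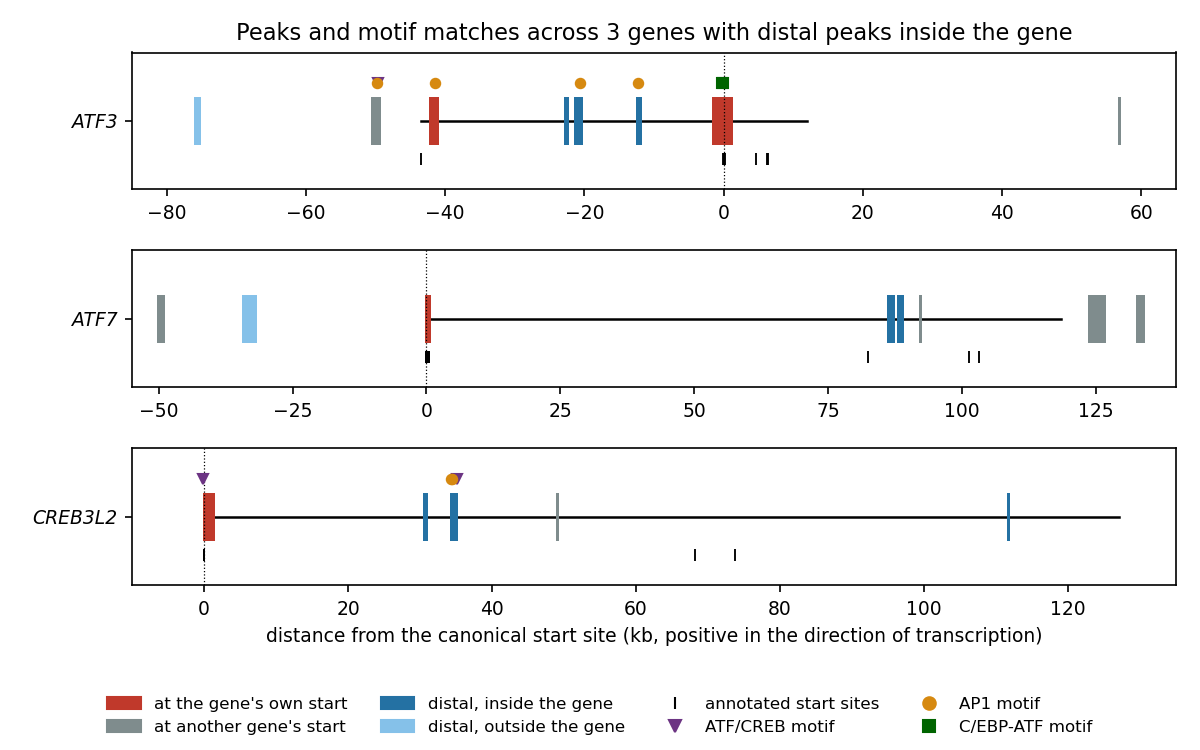
Peaks across ATF3, ATF7 and CREB3L2 (horizontal axes in kb from the canonical start, positive in the direction of transcription), with start sites as ticks below and matches of TGACGTCA (ATF/CREB motif), TGAGTCA (AP1 motif) and TGATGCAA (C/EBP-ATF motif) as symbols above. Matches are drawn inside all peaks of the windows and, for CREB3L2, also before the start. The 8 distal peaks inside the genes (dark blue) lie before the canonical start in ATF3 and downstream of it in the 2 other genes.

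The 8 distal peaks inside ATF3, ATF7 and CREB3L2 measured 420 to 1530 bases with a median of 935, beside 770 for all distal peaks. TGANNTCA was found in 4 of these 8 and in 45.6% of all distal peaks, and TGAGTCA in 3 and in 17.5%. Among the 9 promoter peaks of the members, none held TGACGTCA, against 3.59% of all promoter peaks. TGANNTCA was in 3 of the 9 and in 37.8% of all promoter peaks, and TGAGTCA was in 4 and in 16.5%. Wider peaks hold more matches, and among promoter peaks within 25% of its width TGAGTCA was in 56.0% for ATF4 and 30.5% for ATF5, against 15.4% for CREB3 and 14.7% for the second peak of ATF3. The corresponding shares for TGANNTCA were 84.7% for ATF4, 38.3% for CREB3 and 26.2% for ATF7. TGATGCAA was in 1 of the 9, that of ATF3 with 3080 bases, and in 2.89% of all promoter peaks. Among promoter peaks within 25% of the width of that peak the share was 5.56%. Neither TGACGTGG nor the ER stress element, CCAAT followed after 9 bases by CCACG, was found in any of these peaks. TGACGTGG was in 2.96% of all promoter peaks and 1.93% of all distal peaks, and the ER stress element in 0.133% and 0.0922%.

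Peaks were joined across gaps up to the length usual in super-enhancer calling into 17049 regions, which were ranked by the summed width of their peaks because the list has no signal. A ranked curve scaled to equal axes reaches a slope of 1 at 7.97 kb, and 879 regions lay beyond. No member touched such a region, against 7.59% of protein-coding genes. The region of ATF4 ranked 1013 and that of ATF3 ranked 1401, and those of the 6 other genes with peaks between 2922 and 8469. The regions of ATF4 and ATF2 also include peaks at the starts of neighbours, RPS19BP1 and ATP5MC3. ATF3 touched a region past the point when regions were ranked by span, as 9.25% of genes did, and ATF4 when peaks were joined within 5 kb, as 5.23% did.

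The 3 genes of the ATF1 subgroup were set beside the members. All had a promoter peak, CREB1 of 4320 bases, CREM of 3120 and ATF1 of 2140, with a median of 3120 bases. CREM, which also gives rise to cyclic AMP-inducible repressors, touched a region past the slope point, ranked 365. That region, chr10:35191681-35221980, lay downstream of the widest promoter peak of CREM and ran past the end of the gene. ATF4 had a wider promoter peak than any of these genes, and no other member had one wider than that of CREM. Among 6 other relatives, 5 had a promoter peak, of 3410 bases at ATF6B, the paralog of ATF6, 2470 at CREBL2 and 2340 at CREB3L4. The peaks of ATF6B and CREB3L4 were shared with other genes, as were 2 of the 8 promoter peaks of CREM. CREB3L4 also touched a region past the slope point, ranked 342. The region held 7 peaks over 46.46 kb, whereas CREB3L4 is 6.828 kb long with 1 peak in its body. It can therefore not be assigned to CREB3L4 alone. CREB3L3, a liver and intestine gene of the CREB3 group, had no promoter peak, and the nearest peak lay 28.08 kb from its start.

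Genes that act before or after the members in their pathways were read from lists of 79 genes in all, ATF1 subgroup and relatives included. A promoter peak was found at 72 of them, or 91.1%, against 63.4% of all protein-coding genes. Many of these genes are in use in most cell types, and the share was not tested.

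The pathway of ATF4 had promoter peaks from its kinases to most of its targets. All 7 genes for the eIF2 kinases, eIF2 alpha and the phosphatase subunits had one, of 5340 bases at PPP1R15A, which restores translation, 3340 at PPP1R15B and 3080 at EIF2AK3, the ER kinase PERK. Of 19 amino acid response genes, 16 had one. DDIT4, an inhibitor of mTORC1, had 9130 bases, SLC3A2, the heavy chain of amino acid exchangers, 5990, and DDIT3, which encodes CHOP, 5340. The peaks of DDIT3 and PPP1R15A were shared with other genes, so their widths cannot be assigned to these 2 genes alone. Of the 2 promoter peaks of EIF2AK3, 1 was also shared. FGF21, SLC7A11 and STC2 had no promoter peak, and their nearest peaks lay 15.92, 86.8 and 139.5 kb from the start. SLC7A11 encodes the cystine carrier that pairs with the product of SLC3A2, so the pair differed in this list.

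Every listed gene of the ATF6 and CREB3 group pathways had a promoter peak. All 19 ER stress genes had one, the widest at XBP1, the factor of the parallel IRE1 branch, with 3100 bases. MBTPS1, the Golgi protease that cuts ATF6 first, had 2930 bases at an alternative start 59.73 kb from its canonical start, where the peak measured 1930 bases, and HSP90B1, an ER chaperone, 2300. All 14 genes of ER-to-Golgi transport had one, of 3040 bases at SEC31A, 2960 at SEC16A and 2580 at ARF1. The peak of SEC31A lay 8.498 kb from its canonical start, which was inside another peak of 2080 bases. Of the 3 promoter peaks of SEC31A, 2 were shared with other genes. CREB3L1 lacked a promoter peak while the listed secretory genes had one, and no link between them was tested.

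The stress kinases that act on ATF2 and ATF7 had a promoter peak at 8 of 11 genes, against 63.4% of all protein-coding genes. At MAPK10, which is among the 8, the only such peak lay 234.0 kb from the canonical start. It was within 3 kb of 7 of the 125 start sites of MAPK10 and was shared with another gene. MAP2K7, which activates JNK, had 2920 bases, MAPK9, which encodes JNK2, 2600, and MAP2K3, which activates p38, 1640. MAP2K6, MAPK12 and MAPK13, a p38 activator and 2 p38 kinases, had none, with nearest peaks at 618.8, 8.398 and 65.58 kb.

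**Figure D5:**
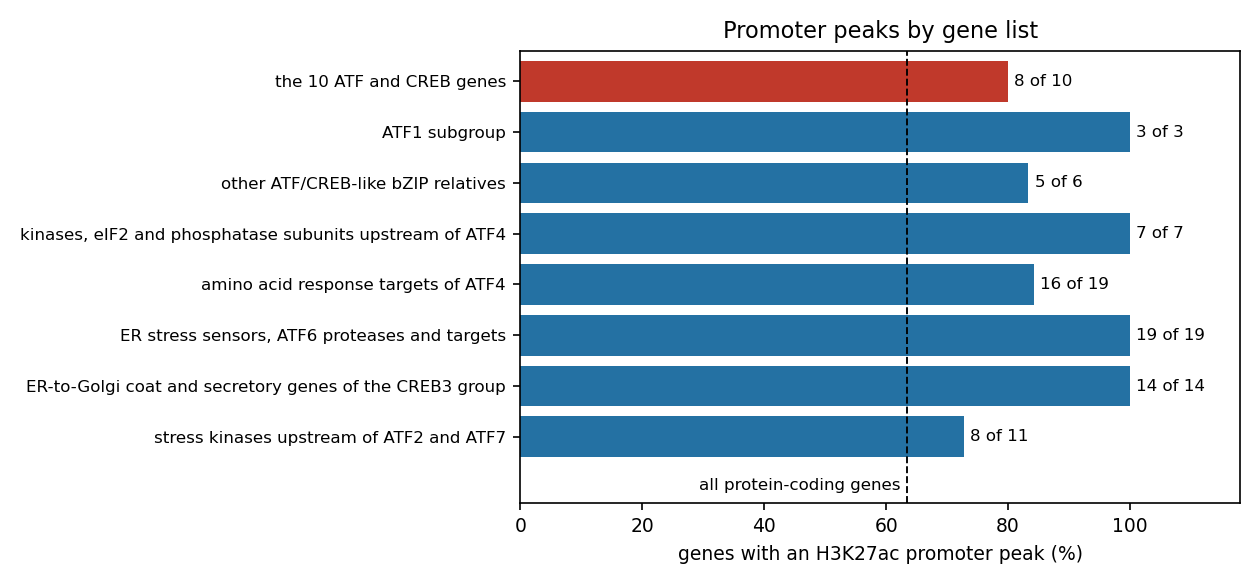
Share of genes with an H3K27ac promoter peak (horizontal axis, percent) for the 10 ATF and CREB genes in red and for each gene list in blue, with the number of genes at the end of each bar. The dashed line marks the 63.4% of all protein-coding genes, and every bar ends to the right of it.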

How the data were processed

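H3K27ac and input libraries of SU-CCS-1 were sequenced in 3 samples each. The authors aligned the reads to hg38 with BWA (0.7.10-r789 in the submitters' processing notes), removed duplicates with samtools, called broad peaks against input with MACS2 (2.2.6) and dropped regions on the ENCODE denylist. The deposited list gives chromosome, start, end and name, with starts and ends in bases on a grid of 10 bases, and no signal, score or count. Depth per sample is therefore unknown.

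Peak positions were compared with GENCODE version 44 and hg38 in Python 3.11.15 (numpy 2.4.6, pandas 2.3.3, scipy 1.17.1, matplotlib 3.10.9). Genes on chromosomes 1 to 22, X and Y were counted once per symbol. A width percentile is the share of protein-coding genes with a promoter peak whose widest one is narrower. Motifs were searched on both strands, and the scripts were tested on simulated data. The printed sequences were read from hg38. For 9 members the RefSeq promoter windows matched hg38 exactly.

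The members and lists were chosen with earlier results of these data known. Named genes are the members, the genes whose starts hold peaks of their windows, ATF1, CREB1 and CREM, and from each list those without a promoter peak and the 3 with the widest. No group comparison could be made on 1 merged list. Alternatives covered the promoter window, flank, transcript types, peak width, joining distance and motif window.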

Additional observations from a re-analysis of the deposited data

How the results depend on the processing

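Of 23 alternative values for 7 results, 7 changed a count by over 1.5 times or from 0. The shares are not among these, though with the widest 50% of peaks they also changed by over 1.5 times. The number of peaks in the windows, 49 with flanks of 50 kb, was 25 with 10 kb, 79 with 100 kb, 19 in gene bodies alone and 26 with the widest 50% of peaks. The number of members in regions past the slope point rose from 0 to 1 when regions were ranked by span (ATF3) and to 1 when peaks were joined within 5 kb (ATF4). Members with TGACGTCA near a start rose from 1 to 2, adding CREB5, when any annotated start was allowed, where 3.82% of all genes held it. A promoter peak was found at 8 members under 4 of the 5 alternatives and at 7 with the widest 50% of peaks, which leaves out ATF7. The count of all protein-coding genes with one ranged from 9797 to 12334. With the widest 50% of peaks, the share of window peaks at a member's own start rose from 18.37% to 30.77%. The interval given for that share covers counting error only and does not measure such a change. Under the same filter the median share of the gene bodies inside peaks fell from 3.346% to 1.846%. The causes were not tested beyond what each alternative adds or removes. No paired analysis was possible because peaks carry no replicate number, and for the same reason no replicate could be left out. The unknown depth limits every absent peak, those of CREB5 and CREB3L1 included.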
